A study of Homo sapiens with 8 samples.

Results

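The regions described here are broad stretches of the genome that carried m6A peaks in every sample of an m6A-seq experiment on HepG2 cells, an established human line of liver cancer origin. Peaks of the 4 lists, 1 per immunoprecipitated sample, were merged wherever they overlapped by at least 1 base, and a merged region was kept when all 4 lists had a peak in it and its merged size reached 3000 bases. This left 340 broad regions of 12221 merged regions (2.78%) and of the 3875 regions shared by all samples (8.77%). The 3535 shared regions under the limit are called compact. The regions were chosen by their measured peak positions, so their size and their presence in all samples are properties of the choice. Each of the 340 had a value in every sample, and no filter on low values was applied.

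Control cells (siControl) received a control siRNA and knockdown cells (siMETTL3) an siRNA against METTL3, and both were collected 48 h after transfection, with 2 replicates in each group. In m6A-seq, polyadenylated RNA is fragmented, an antibody collects the fragments that carry N6-methyladenosine (m6A), and peaks are called where the collected RNA exceeds the input RNA. Each replicate also had an input library, which was not analysed here. Whether the authors' peak caller used it as background is not given in the sources used here. The level of METTL3 itself was not analysed here, so the lists carry no check of the knockdown.

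m6A is the most common internal modification of messenger RNA. METTL3 is the catalytic subunit of the complex that writes it, together with METTL14, which helps to hold the RNA, and the adaptor WTAP, while FTO and ALKBH5 remove it and proteins with a YTH domain bind it. The mark is known to favour long internal exons and the surroundings of stop codons. A single modified base gives a peak about as wide as the RNA fragments around it, and neighbouring modified bases can give 1 joined peak or several. A peak's breadth, the number of peaks called in a region and the place of the summit (the position of highest signal in a peak) are therefore the readouts that describe a broad region. Regions are named by their position in the genome build hg19, and genes and transcript parts were not assigned.

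The 2 siControl lists had 6888 and 8162 peaks and the 2 siMETTL3 lists 7138 and 8577. Tags, the sequenced fragments counted inside peaks, came to 2004090 and 2426342 in siControl and to 2418197 and 1945803 in siMETTL3. siMETTL3 replicate 2 stood apart: its shortest peak had 247 bases against 365 to 373 in the other samples, and its summits lay farther from those of every other sample, as given below. Results that turn on it are also given without it. Nothing in the labels says that replicates came from separate cultures, so p-values measure only the spread between these samples.

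Broad regions held few of the peaks and many of the tags. Between 358 and 375 peaks of a sample lay in them (4.37% to 5.26% of its peaks), together with 11.6% to 13.4% of the bases under peaks and 15.0% to 17.1% of the tags. Of the 100 peaks with the highest score in a sample, a score being 10 times the negative log10 of the peak's p-value, 40, 44, 56 and 38 lay in broad regions in siControl replicates 1 and 2 and siMETTL3 replicates 1 and 2. Of the 100 peaks with the highest fold enrichment, 0, 2, 1 and 1 did. The broad regions thus ranked high by score, which grows with the number of tags, and low by the ratio of immunoprecipitated to background signal.

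Merged sizes ran from 3002 to 10602 bases with a median of 3647.5 and quartiles of 3298 and 4274.75. Of the 340 regions, 219 were under 4000 bases, 80 measured at least 4000 but under 5000, 23 at least 5000 but under 6000 and 18 measured 6000 or more. Most regions therefore lay close to the limit. The 2 smallest members, chr3:39183238-39186239 and chr7:99667238-99670239, both measured 3002 bases. The first had fold enrichments of 3.85, 3.85, 3.75 and 4.33 in siControl replicates 1 and 2 and siMETTL3 replicates 1 and 2, with 708, 675, 753 and 572 tags, and the second had fold enrichments of 3.06, 4.09, 3.49 and 3.91 with 782, 850, 765 and 628 tags. Just outside the limit, chr16:72991190-72994188 (2999 bases) had fold enrichments of 5.29, 7.89, 5.96 and 8.85 with 380, 449, 397 and 294 tags, and chr7:149169899-149172895 (2997 bases) had 4.85, 4.53, 4.58 and 4.29 with 786, 827, 1008 and 674 tags. All values listed for 4 samples below follow this sample order.

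Broad regions lay on 23 chromosomes. Their share among shared regions was highest on chromosome 22 (20 of 105, 19.05%), chromosome 21 (10 of 53, 18.9%) and chromosome 20 (15 of 97, 15.5%). It was lowest, among chromosomes with any, on chromosome 18 (2 of 62, 3.23%) and chromosome 5 (7 of 187, 3.74%). Chromosome 19 had the largest number, 36 of 283 (12.7%). Another merged region lay within 1000 bases of 36 broad regions (10.6%), against 9.42% of compact ones, and within 10000 bases of 153 (45.0%), against 40.8%.

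A region can pass 3000 bases because 1 peak is that long or because shorter peaks of different samples join. A single peak of at least 3000 bases was present in all 4 samples in 190 regions (55.9%), in 3 samples in 31, in 2 samples in 41, in 1 sample in 62 and in none in 16. Both siControl samples and no siMETTL3 sample had such a peak in 14 regions, and both siMETTL3 samples and no siControl sample in 9. The number of regions with a peak this long was 235, 269, 254 and 239 by sample, so the groups overlapped. A sample's own peaks covered a median of 95.1%, 97.2%, 97.3% and 95.0% of a broad region's bases. The group means were 96.16% ± 1.52 in siControl and 96.15% ± 1.61 in siMETTL3 (SD, n = 2 each, two-sided exact permutation, p = 1.0). With 2 samples against 2 this test cannot give a p below 0.33. The merged size comes from these same peaks, so the covered share is not independent of how the regions were chosen. The difference was smaller than the spread in either group, and it changed from -0.0080 to 1.07 percentage points without siControl replicate 2 and to 1.13 without siMETTL3 replicate 2. The 2 samples with the most tags in peaks, siControl replicate 2 and siMETTL3 replicate 1, were also those with the highest coverage, and the part of tag number in it was not tested.

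The largest region, chr16:89345015-89355616, measured 10602 bases and was covered over 10511, 10527, 10360 and 9959 of them. It was 1 peak in both siControl samples and 2 peaks in both siMETTL3 samples, with the longer of the 2 spanning 7770 and 7776 bases. Its highest fold enrichment was 2.94, 3.11, 3.22 and 3.74, on 6198, 6727, 5768 and 4417 tags. Enrichment was thus higher in both siMETTL3 samples, and the difference did not pass the test over all shared regions (log2 0.20 ± 0.17 SE, limma adjusted p = 0.715). The next in size, chr16:31087303-31096770 (9468 bases), was 1 peak in every sample but reached 9340 and 9450 bases only in siControl replicate 2 and siMETTL3 replicate 1, against 6208 and 6344 in the other pair. Its summits lay 5142, 5144, 3857 and 2547 bases from its start, with fold enrichments of 3.56, 4.01, 3.38 and 5.77.

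**Figure D1:**
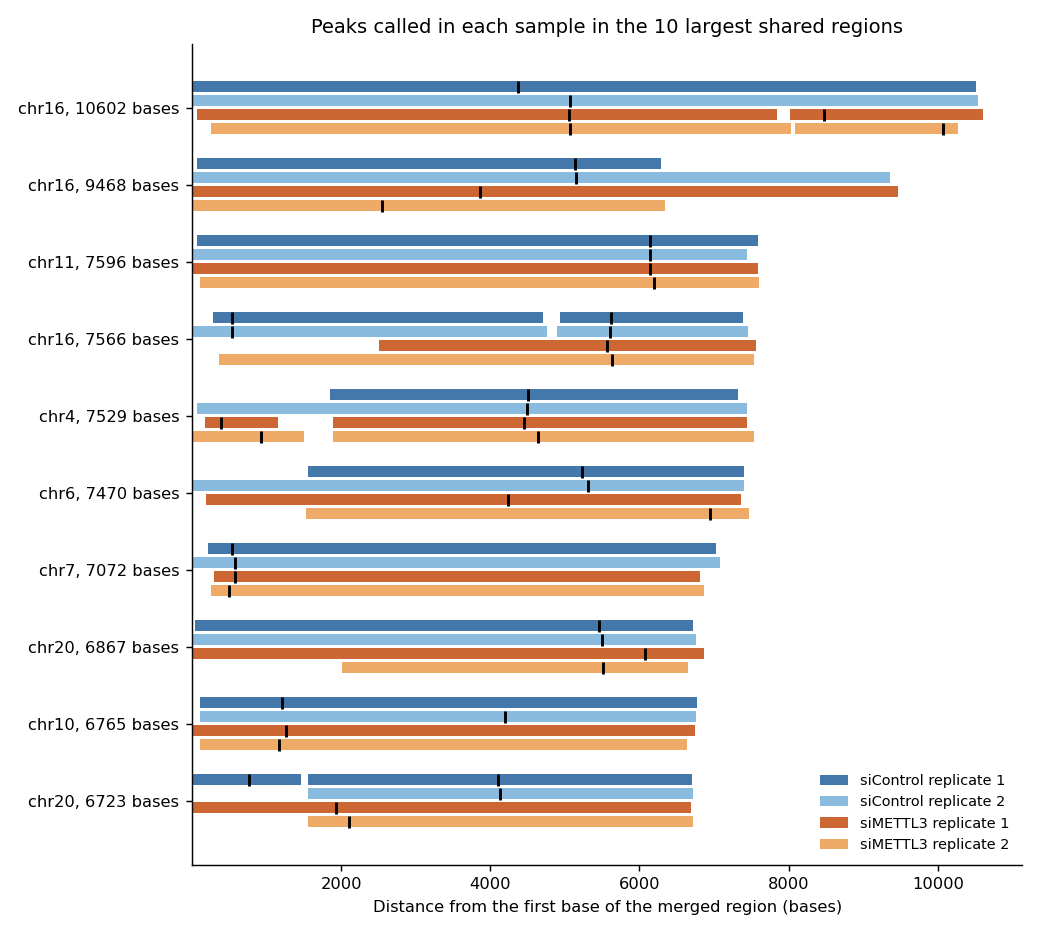
Peaks called in each sample in the 10 largest broad regions, as distance in bases from the first base of the merged region. Each bar is 1 peak, each row of bars 1 sample and each black mark the summit of that peak. The region of 10602 bases was 1 peak in both siControl samples and 2 peaks in both siMETTL3 samples.

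Among the 10 largest regions, chr11:118766765-118774360 (7596 bases) was the most alike between samples: it was covered over 7518, 7430, 7593 and 7487 bases, with summits 6136, 6141, 6139 and 6191 bases from its start and fold enrichments of 3.56, 3.94, 3.75 and 3.58. chr7:99630544-99637615 (7072 bases) also kept its summit, 537, 577, 575 and 504 bases from the start, while its fold enrichment was 5.09, 5.55, 5.31 and 8.09 and its tags numbered 1533, 1669, 1146 and 957. Tags in this region were lower in both siMETTL3 samples (log2 -0.48, edgeR adjusted p = 0.0345) and its fold enrichment overlapped between the groups. In 3 of the 10 the number of peaks separated the groups: the largest region, chr4:978445-985973 (7529 bases, 1, 1, 2 and 2 peaks) and chr16:87439698-87447263 (7566 bases, 2, 2, 1 and 1 peaks). In the chromosome 4 region the fold enrichment was 3.46, 3.88, 5.06 and 5.65, without overlap, but its test did not pass (log2 0.55 ± 0.17 SE, limma adjusted p = 0.413). In the chromosome 16 region at 87439698 both siControl samples had a gap past the middle of the region, and the peaks of both siMETTL3 samples bridged it. siMETTL3 replicate 1 had no peak over the first part of the region, covering 5061 bases against 6892, 7322 and 7182 in the other samples.

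The remaining 4 of the 10 had fold enrichments that overlapped between the groups or did not pass the test. chr6:31623292-31630761 had 3.84, 4.18, 3.33 and 3.49. chr20:62191132-62197998 had 3.02, 3.34, 4.69 and 3.52, chr10:73766680-73773444 had 3.52, 4.47, 3.72 and 3.81, and chr20:31020534-31027256 had 2.80, 2.44, 3.22 and 2.47. Of the 10 largest regions, only chr7:99630544-99637615 exceeded an enrichment of 6 in any sample. Over the 340 regions size and enrichment were almost unrelated, with Pearson's r between -0.033 and 0.075 by sample, and size was related to the number of tags with r between 0.342 and 0.406. These are correlations across regions within a sample, given as a description.

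In most broad regions every sample had 1 peak, but that peak did not always span the region. As given above, all samples had a single peak of at least 3000 bases in only 190 of the 340 regions. In 281 of 340 (82.6%) every sample had 1 peak, and in 59 (17.4%) at least 1 sample had 2 or more. Of these 59, 36 were split in 1 sample, 15 in 2, 6 in 3 and 2 in all 4. By sample, 22, 17, 19 and 34 broad regions were split (6.47%, 5.00%, 5.59% and 10.0%), against 0.424%, 0.481%, 0.453% and 0.707% of compact regions. Splitting was thus more frequent in broad than in compact regions in each of the 4 samples, and siMETTL3 replicate 2 had the most in both classes. Regions were chosen by merged size, and a longer region has room for more peaks. The difference between the classes is therefore not independent of the choice. Of the regions split in a single sample, 6 and 15 belonged to siMETTL3 replicates 1 and 2 and 10 and 5 to siControl replicates 1 and 2.

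The share of split regions was 5.74% ± 1.04 in siControl and 7.79% ± 3.12 in siMETTL3 (SD, n = 2 each; two-sided exact permutation, p = 0.667). The mean number of peaks per region was 1.06 ± 0.0083 and 1.08 ± 0.033 (exact permutation test, p = 0.667). Each difference was smaller than the SD in siMETTL3 and larger than the SD in siControl. Without siMETTL3 replicate 2 both changed direction, from 2.06 to -0.147 percentage points and from 0.0206 to -0.0029 peaks per region. The number of peaks was higher in both siMETTL3 than in both siControl samples in 5 broad regions (1.47%, against 0.181% of all shared regions) and lower in 3 (0.882%, against 0.232%). These shares are likewise not independent of the choice by size.

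**Figure D2:**
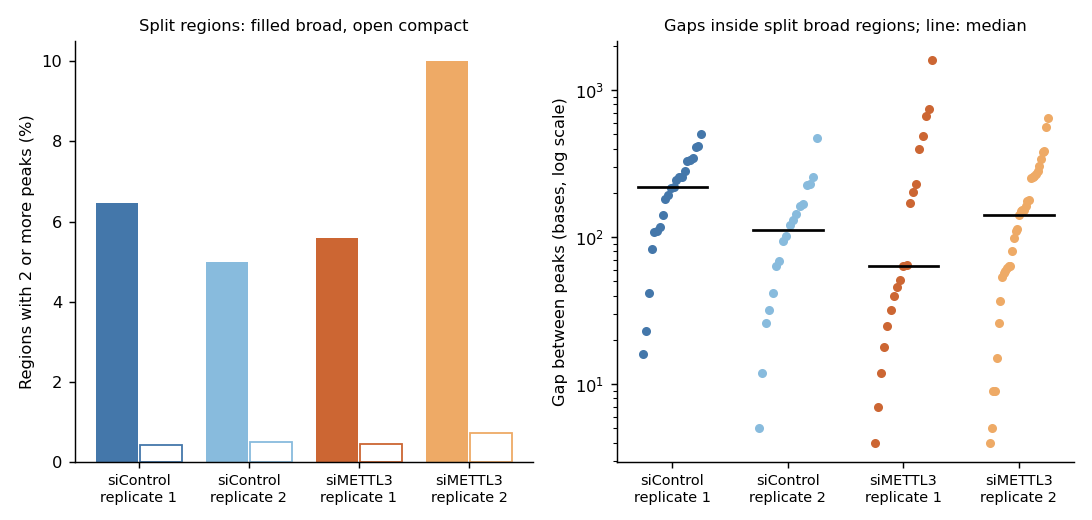
Left, percent of regions with 2 or more peaks in each sample, for broad (filled bars) and compact regions (open bars). Right, each gap between neighbouring peaks inside a split broad region as a point, in bases on a log axis, with the median as a line. siMETTL3 replicate 2 had 10.0% of its broad regions split, against 5.00% to 6.47% in the other samples.

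The gaps between pieces were short compared with the regions. The split regions held 94 gaps of 4 to 1594 bases with a median of 141.5, and the medians by sample were 218.5, 112, 64 and 141 bases. A peak of at least 1 other sample spanned 91 of the gaps, and peaks of all 3 other samples spanned 28. Pieces join into 1 region only through overlapping peaks of other samples, so the first of these counts follows from the merging. The pieces were of similar enrichment, since the higher exceeded the lower by a median of 1.22 times and by at most 2.33 times. The longest piece held a median of 66.4% of the bases covered.

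Only 2 regions were split in all 4 samples. chr12:56142225-56146014 (3790 bases) had 2 peaks in each, with fold enrichments of 7.10, 7.50, 6.25 and 6.79, and its covered bases numbered 2264, 2485, 3550 and 3510. Its tags numbered 290, 387, 588 and 531 and were higher in both siMETTL3 samples (log2 0.86, edgeR adjusted p = 0.0151), together with the covered length. chr19:14162571-14166221 (3651 bases) had 2 peaks in each, fold enrichments of 6.10, 6.84, 5.59 and 7.43, and 498, 666, 721 and 619 tags, with overlapping groups. In both regions the summit of the highest peak kept its place, at 3051 to 3127 bases from the start of the first and 2544 to 2676 bases from the start of the second.

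chr1:14104806-14109542 (4737 bases) also had 8 peaks over the 4 samples, as 1, 3, 2 and 2. siControl replicate 1 covered only 1773 bases with 172 tags, whereas the other samples covered 4631, 4276 and 4686 bases with 484, 430 and 460 tags, so here a siControl sample stood apart rather than a group. chr7:97841177-97847243 (6067 bases) had 1, 2, 2 and 2 peaks over 5930, 5928, 5961 and 5761 covered bases. chr16:88740555-88745452 (4898 bases) had 2, 1, 2 and 2 peaks, and its fold enrichments of 5.72, 8.28, 7.72 and 7.67 were above the median of the broad regions in every sample.

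Beside the pair among the largest regions, chr15:102028666-102033411 (4746 bases) was the region with the largest gain in peaks, 1, 1, 2 and 3. It held 594, 742, 478 and 309 tags over 4542, 4746, 4082 and 3692 covered bases, lower in both siMETTL3 samples (log2 -0.65, edgeR adjusted p = 0.0415), at fold enrichments of 4.77, 4.33, 7.11 and 5.63. chr2:200321706-200325517 and chr10:98742183-98745417 had 2, 2, 1 and 1 peaks. In the first, fold enrichment was 4.70, 5.49, 3.43 and 4.29, lower in both siMETTL3 samples without passing the test (limma adjusted p = 0.541). In the second it was 4.34, 5.55, 4.31 and 5.55, almost the same in the groups.

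The position of highest signal was less well fixed in broad regions than in compact ones. Between siControl replicates the summits of the highest peak lay a median of 25 bases apart, and between siControl replicates 1 and 2 and siMETTL3 replicate 1 they lay 23 and 24 bases apart. siMETTL3 replicate 2 lay 48, 50 and 47 bases from siControl replicate 1, siControl replicate 2 and siMETTL3 replicate 1. The distances between groups, 23 to 50 bases, thus depended on the sample and spanned those within groups. Summits lay within 200 bases of each other in 72.4% to 78.2% of broad regions for the 6 pairs of samples, against 91.0% to 92.6% of compact regions, and over 1000 bases apart in 41 to 55 broad regions (12.1% to 16.2%).

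**Figure D3:**
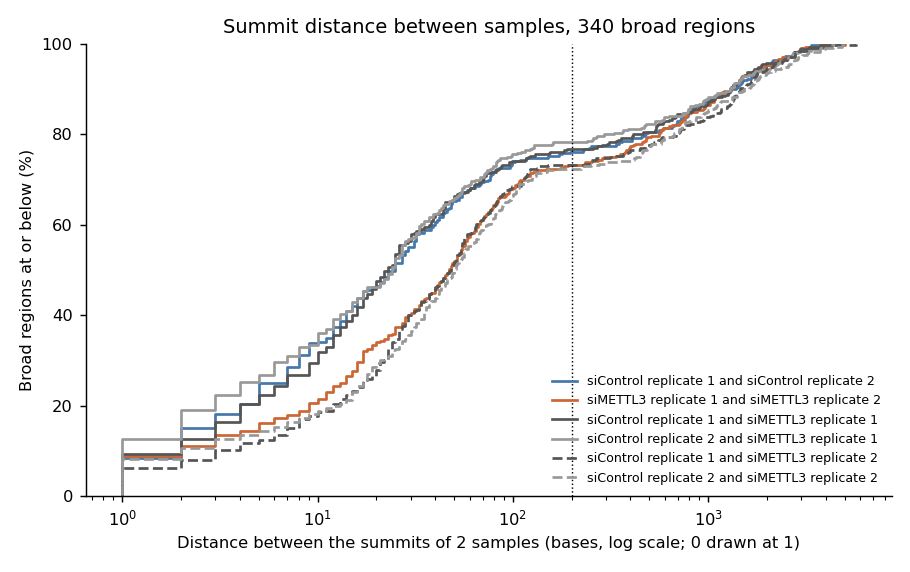
Cumulative percent of the 340 broad regions by the distance between the summits of 2 samples, in bases on a log axis, with a distance of 0 drawn at 1 and a dotted line at 200 bases. Blue and orange lines are pairs of replicates of 1 group, gray lines are pairs between groups. The 3 pairs with siMETTL3 replicate 2, with medians of 47 to 50 bases, run to the right of the others over short distances.

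Across all 4 samples the summits of a broad region spanned a median of 95.5 bases. The span was within 200 bases in 195 regions (57.4%) and over 1000 bases in 83 (24.4%), against 84.4% and 1.75% of compact regions. Summits lay a median of 25.9% to 27.1% of the region's size from its nearer end, compared with 38.3% to 39.2% in compact regions. The median in broad regions was thus about midway between an end and the centre. Since a summit may move farther in a longer region, the differences in span are given as a description with no test. The distance from the nearer end is also a description, and whether summits preferred any part of a region was not tested.

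In 10 broad regions (2.94%, against 0.8% of all shared regions) the summits lay within 200 bases inside each group and over 500 bases apart between the groups. These 10 were chosen after their values were seen. The widest was chr19:13205234-13210669 (5436 bases), with summits 505, 513, 4823 and 4863 bases from its start. Its fold enrichments were 4.95, 5.62, 5.61 and 6.09, so the summit stood near one end in siControl and near the other in siMETTL3 at similar enrichment. Both siMETTL3 samples were split in this region, with gaps of 1594 and 99 bases. The summit is that of a sample's highest peak, so the summits compared may belong to separate peaks. chr12:1599109-1605070 (5962 bases) had its summits at 4300, 4308, 580 and 571 bases with fold enrichments of 4.07, 4.24, 5.08 and 5.09. chr17:17696099-17702021 (5923 bases) had them at 665, 636, 3197 and 3197 bases with 3.70, 4.27, 3.17 and 3.20. The moves ran in both directions along the genome, and the strand of the transcripts was not assigned. The others included chr22:42089469-42094207 (2490, 2538, 1108 and 1138 bases) and chr12:1700580-1704388 (1546, 1533, 2854 and 2857 bases).

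Fold enrichment was modest in broad regions. The median over regions of the highest peak's fold enrichment was 3.90, 4.185, 4.195 and 4.24, against 4.72, 5.04, 4.60 and 5.14 in compact regions, and single broad regions ran from 1.89 to 12.45. Tag density ran the other way, with medians of 241, 264, 280 and 215 tags per kb of peak in broad and 178, 199, 185 and 164 in compact regions. In every sample broad regions thus had the lower enrichment and the denser tags. Median scores were 282, 428, 424 and 330 in broad and 159, 206, 155 and 175 in compact regions. The false discovery rate (FDR) that the peak caller gave reached 5% or less in 60, 83, 5 and 5 broad regions (17.6%, 24.4%, 1.47% and 1.47%). It did so in 127, 191, 1 and 1 compact regions (3.59%, 5.40%, 0.028% and 0.028%). At this limit the siControl and siMETTL3 samples thus did not overlap in either class, whereas their median scores overlapped in both. The first quartile of the FDR over broad regions was 7.7%, 5.2%, 23.5% and 21.2% by sample. Whether the FDR has the same scale in every list was not tested. The separation at 5% is therefore not read as lower peak confidence in siMETTL3. An FDR of 50% or less was reached in 274, 296, 281 and 301 broad regions (80.6%, 87.1%, 82.6% and 88.5%), against 57.3%, 71.0%, 47.7% and 73.2% of compact regions. At 50% the groups overlapped in both classes.

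**Figure D4:**
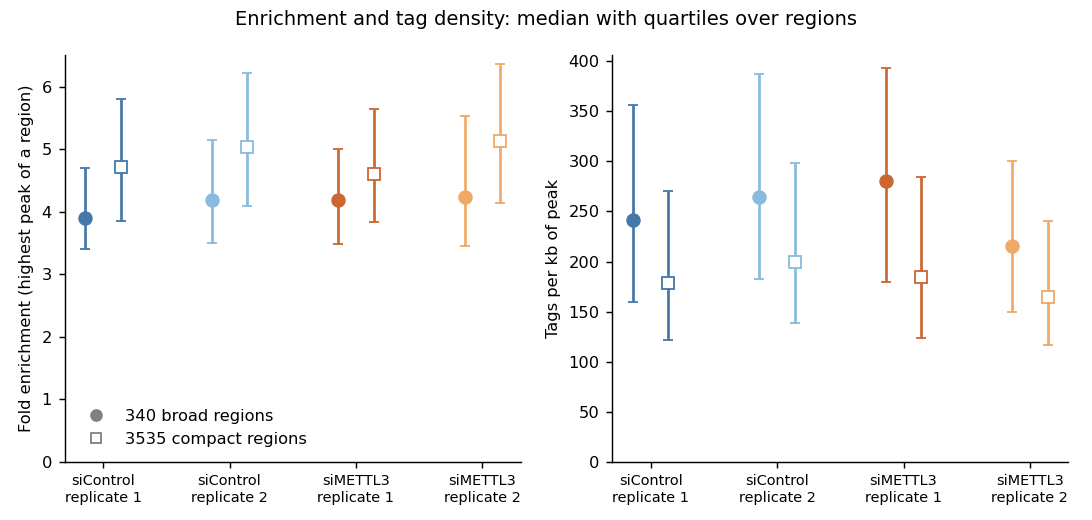
Median (symbol) with quartiles over regions (bars) in each sample, for 340 broad regions (filled circles) and 3535 compact regions (open squares). Left, fold enrichment of the highest peak of a region; right, tags per kb of peak. Broad regions had the lower enrichment and the higher tag density in all 4 samples.

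On the log2 scale the median enrichment of broad regions lay 0.28, 0.27, 0.13 and 0.28 below that of compact regions. The difference was -0.27 ± 0.0050 in siControl and -0.21 ± 0.10 in siMETTL3 (SD, n = 2 each; two-sided exact permutation, p = 1.0). The excess of broad over compact regions in log2 tags per kb was 0.44, 0.41, 0.60 and 0.39, or 0.42 ± 0.022 and 0.49 ± 0.15 (exact permutation test, p = 1.0). Both group differences rested on siMETTL3 replicate 1, since without it they went from 0.066 to -0.0059 and from 0.072 to -0.032. In each measure the group difference was smaller than the SD in siMETTL3 and larger than the SD in siControl. Enrichment was well ranked between samples, with Pearson's r over the broad regions of 0.830 within siControl, 0.790 within siMETTL3 and 0.705 to 0.783 between the groups, as a description across regions.

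The comparison of siMETTL3 with siControl asked how the enrichment of these regions differed after METTL3 siRNA. No broad region passed an adjusted p of 0.05 for log2 fold enrichment (limma on all 3875 shared regions, Benjamini-Hochberg), and none of the shared regions did (0%; smallest adjusted p = 0.373). At an unadjusted p under 0.05 there were 17 broad regions (5.00%), 12 higher and 5 lower in siMETTL3, against 9.6% of all shared regions. The median log2 change was 0.043 in broad regions and 0.0091 in all shared regions, with a median standard error of 0.18 for a single broad region. Single libraries moved the median of broad regions, which was 0.0029 without siControl replicate 1, 0.094 without siControl replicate 2 and 0.021 without siMETTL3 replicate 2. Changes were above 0 in 204 broad regions (60.0%), against 51.5% of shared regions. Both siMETTL3 samples were above both siControl samples in 82 broad regions (24.1%, against 20.6%) and below them in 48 (14.1%, against 21.1%). The median log2 enrichment of the broad regions was 1.96, 2.07, 2.07 and 2.08, or 2.01 ± 0.072 in siControl and 2.08 ± 0.011 in siMETTL3 (exact permutation test, p = 0.33, the smallest possible).

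The region with the lowest ratio of siMETTL3 to siControl was chr12:69232904-69237105 (4202 bases), with fold enrichments of 6.68, 5.35, 3.11 and 2.74 (log2 -1.03 ± 0.19 SE, unadjusted p = 0.000782, limma adjusted p = 0.373). It was covered over 3640 and 4194 bases in siControl and over 848 and 870 bases in siMETTL3, with 1007, 1113, 247 and 205 tags. Its summits lay 3130 and 3086 bases from the start in siControl and 397 and 347 bases in siMETTL3. Both siMETTL3 samples thus had only a short peak at one end of the region. The summed tags were lower (log2 -2.11, edgeR adjusted p = 0.00109), while tags per kb of peak were not (log2 0.058, limma adjusted p = 0.846).

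The next lowest were chr14:32559558-32563791, with 8.28, 4.75, 3.57 and 4.14 (log2 -0.71, limma adjusted p = 0.474), and chr21:43410707-43414304, with 7.82, 10.43, 4.09 and 8.58 (log2 -0.61, limma adjusted p = 0.581). In the first siControl replicate 1 was far above the rest, and in the second the groups overlapped. The log2 change of the first was -0.31 without siControl replicate 1 and -1.11 without siControl replicate 2. That of the second was -0.40 without siControl replicate 2, -0.074 without siMETTL3 replicate 1 and -1.14 without siMETTL3 replicate 2. The region on chromosome 14 was covered almost completely in every sample (4224, 4234, 4217 and 4181 of 4234 bases), and its summit stayed between 484 and 502 bases from the start.

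The highest ratios were found in chr9:98268377-98271813, with fold enrichments of 4.24, 4.90, 8.54 and 6.45 (log2 0.70 ± 0.20 SE, limma adjusted p = 0.413), in chr17:62773986-62777212, with 3.97, 3.22, 5.43 and 6.21 (log2 0.70 ± 0.18 SE, limma adjusted p = 0.404), and in chr7:2289047-2295002, with 4.16, 3.67, 5.77 and 6.74 (log2 0.67 ± 0.18 SE, limma adjusted p = 0.404). The groups did not overlap in any of the 3, and none passed the test. In the first the tags numbered 362, 552, 423 and 407 and overlapped (edgeR adjusted p = 0.995). In the region on chromosome 7 they were higher, with 937, 1125, 1945 and 1250 (log2 0.74, edgeR adjusted p = 0.0345), where siMETTL3 replicate 1 covered 5956 bases and the others 3673 to 3820.

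Summed tags gave calls where enrichment gave none. With edgeR's quasi-likelihood test on the tags of a sample's peaks in each region, 56 broad regions passed an adjusted p of 0.05 (16.5%, 33 higher and 23 lower in siMETTL3), against 10.1% of all shared regions. Tags were summed over the bases each sample called. A region that reached 3000 bases through 1 group only had to differ in covered length, so this count is not independent of how the regions were chosen. Per kb of peak, 21 broad regions passed (6.18%, 7 higher and 14 lower, limma on log2 tags per kb), against 6.01% of all shared regions, and 17 were called by both. Per kb the share of broad regions called was close to that of all shared regions. Of the 56 regions called on summed tags, 5 had the opposite sign per kb.

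Single libraries set how many regions were called on summed tags. The count was 27 or 37 when siControl replicate 1 or 2 was left out and 79 or 141 when siMETTL3 replicate 1 or 2 was left out, of which 24, 29, 53 and 56 were among the 56. The median log2 tag change of the broad regions was 0.073 and became -0.013 without siMETTL3 replicate 1.

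Covered length moved together with tags. Of the 33 regions with more tags, 28 had more covered bases in both siMETTL3 than in both siControl samples, and of the 23 with fewer tags, 20 had fewer. Over the 340 regions Pearson's r was 0.824 between the log2 changes in covered bases and in tags, 0.067 between covered bases and enrichment, and -0.090 between tags and enrichment. All 3 are descriptions, and covered bases and tags come from the same peaks. Covered bases were higher in both siMETTL3 samples in 79 broad regions (23.2%, against 15.9% of shared regions) and lower in 92 (27.1%, against 27.3%). The same peaks set the merged size, so these shares of broad regions are not independent of the choice. Of the 33 regions with more tags, fold enrichment was above siControl without overlap in 6 and below it in 4. Of the 23 with fewer tags it was above in 9 and below in 4. Among all 340 broad regions fold enrichment was above without overlap in 24.1% and below in 14.1%. Among all shared regions the shares were 20.6% and 21.1%.

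**Figure D5:**
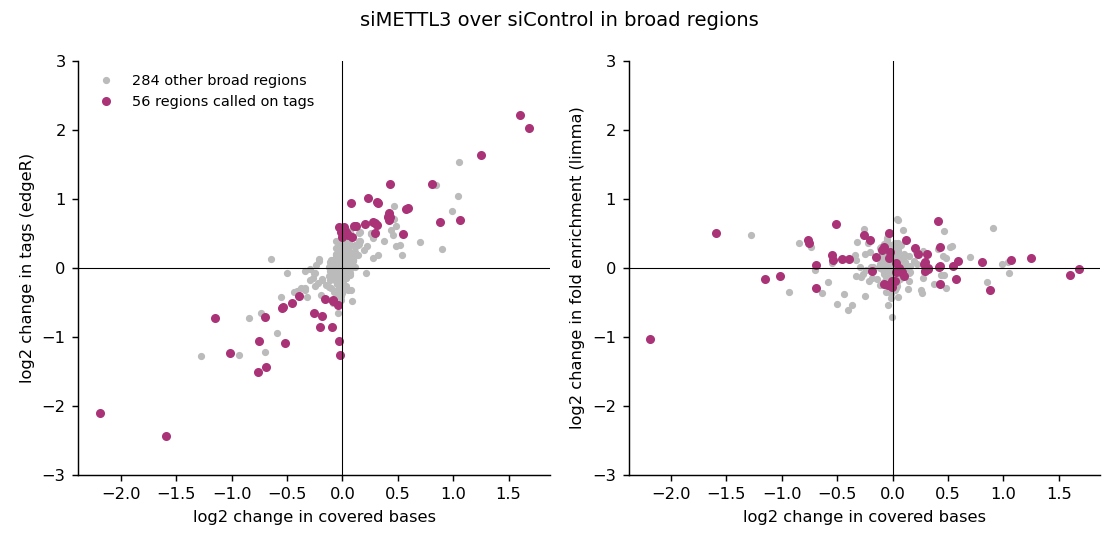
siMETTL3 over siControl in the 340 broad regions, with the log2 change in covered bases on the horizontal axes. Left, log2 change in summed tags (edgeR); right, log2 change in fold enrichment (limma). Purple points are the 56 regions called on tags and gray points the other 284; tags followed covered bases (r = 0.824) and enrichment did not (r = 0.067).

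The regions with the strongest tag changes, chosen after their values were seen, also differed in breadth. chr22:41791602-41795158 held 134, 158, 647 and 455 tags (log2 2.03, edgeR adjusted p = 0.00442). It was covered over 1080 and 1095 bases in siControl and over 3545 and 3431 bases in siMETTL3, while its summit stayed between 310 and 352 bases from the start and its fold enrichments of 4.32, 6.08, 5.40 and 4.76 overlapped. chr7:148990698-148994502 held 67, 78, 407 and 221 tags over 955, 1025, 3805 and 2195 covered bases (log2 2.21, edgeR adjusted p = 0.0103). chr3:119528761-119531870 held 100, 112, 306 and 298 tags over 1027, 1069, 2359 and 2615 bases (log2 1.64, edgeR adjusted p = 0.00722). All 3 owed their merged size to the siMETTL3 peaks, so longer peaks and more tags in siMETTL3 followed from the size limit and the p-values are no independent support. The summits lay in similar places in the 4 samples, and per kb of peak only the second was still called (limma adjusted p = 0.0297, against 0.216 and 0.133).

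The size limit was likewise reached through the siControl peaks in the next pair of regions, as in chr12:69232904-69237105, so their lower tags in siMETTL3 are not independent of the choice either. chr3:52467197-52470399 held 617, 777, 150 and 88 (log2 -2.44, edgeR adjusted p = 0.00442) over 3061, 3203, 1085 and 995 covered bases. Its fold enrichment was 4.47, 4.32, 6.62 and 5.92, so the shorter siMETTL3 peaks had the higher enrichment (limma adjusted p = 0.417). chr5:77781980-77785327 held 611, 651, 203 and 204 tags (log2 -1.50, edgeR adjusted p = 0.00699) over 3275, 3175, 1833 and 1967 bases. Both also had fewer tags per kb of peak (limma adjusted p = 0.0125 and 0.0106).

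The following regions were also chosen after their values were seen. In chr3:99566782-99570112 tags fell without a change in breadth, with 2503, 2540, 957 and 969 tags over 3331, 3330, 3314 and 3258 covered bases (log2 -1.26, edgeR adjusted p = 0.0114). Its fold enrichment of 3.07, 2.64, 2.64 and 4.24 overlapped between the groups. chr4:1193162-1199047 had 930, 1091, 478 and 397 tags (log2 -1.08, edgeR adjusted p = 0.00497). They lay over 5866, 5850, 3996 and 4208 covered bases, so here breadth fell as well. Its fold enrichments were 4.75, 4.73, 7.58 and 7.16. Tags and enrichment therefore moved in opposite directions there, although the enrichment difference of 0.64 on the log2 scale did not pass the test. Tags in the immunoprecipitated RNA follow both the amount of a transcript and its methylation, and fewer transcripts and less m6A per transcript cannot be told apart from tags alone.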

How the data were processed

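Polyadenylated RNA of HepG2 cells was profiled by m6A-seq, and the analysis used 4 peak lists, 1 for each immunoprecipitated sample. Per the labels, the submitters' processing notes name CASAVA 1.8.2, MACS 1.4.2 and hg19. Peaks were called in each sample separately. The authors deposited, for each peak, its tags as a raw count, a score of 10 times the negative log10 of the p-value beginning at 50, a fold enrichment, which is a linear ratio over background, and an FDR in percent. Other settings are not given in the sources used here, and library depth is unknown from these lists, so counting intervals are not given, and the number of samples limits the precision.

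Peaks were merged as described. A sample's enrichment and summit in a region are those of its peak with the highest fold enrichment, and its tags and covered bases are sums over its peaks. Log2 fold enrichment without pseudocount and log2 tags per kb were compared with limma 3.58.1 (lmFit, eBayes), and summed tags with edgeR 4.0.16 (TMM, glmQLFit, glmQLFTest; DESeq2 1.42.0 as an alternative), in R 4.3.3 over all 3875 shared regions at a Benjamini-Hochberg adjusted p of 0.05. Both fits were tested on simulated data. Single values per sample were compared by exact two-sided permutation over 6 relabellings. Python 3.11.15, pandas 2.3.3, scipy 1.17.1 and matplotlib 3.10.9 were used.

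The regions, gene lists and tests were chosen with earlier results of these data known. Regions named were the 10 largest, the 5 with most peaks, 3 each with the highest and lowest enrichment ratio, 3 each with the largest gain and loss of peaks between groups that did not overlap, and the 2 on either side of the size limit; others are marked. The gene lists of that rule were not used here, since no annotation or sequence of hg19 was used. Alternatives were other size limits, a stricter overlap, score or FDR, other fits, the replicate number as a block and each replicate left out.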

Additional observations from a re-analysis of the deposited data

How the results depend on the processing

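The number of broad regions was 581 with a limit of 2500 bases, 121 with 4000 bases and 213 with peaks of an FDR of at most 50%, and it stayed within 1.5 times of 340 with a score of at least 70 (296) and a merging overlap of 100 bases (334). No broad region was called on enrichment under any of 11 alternatives, with 180 to 497 shared regions at an unadjusted p under 0.05. Broad regions called on tags numbered 104 with a limit of 2500 bases, 17 with 4000 bases and 21 with limma on log2 tags per kb, and all shared regions called numbered 233 with the last. Leaving out 1 replicate at a time gave 27 to 141 broad and 148 to 999 shared regions, and a median tag change of broad regions of -0.013 to 0.135. In the same way peaks per region differed by -0.0029 to 0.044, split regions by -0.147 to 4.26 percentage points, covered share by -1.15 to 1.13, broad minus compact enrichment by -0.0059 to 0.139 and tag density by -0.032 to 0.177. With a score of at least 70 the covered share differed by 0.020. Per kb of peak the tag change at chr12:69232904 was 0.058, since its peaks were shorter in siMETTL3. The cause of the other changes was not tested. With the replicate number as a replicate block, 118 broad and 835 shared regions were called on tags and none on enrichment. Samples shared only a number: deviations of the same number correlated by 0.011 for log2 enrichment and 0.264 for log2 tags. Depth limits what peak lists can show, since a region without a peak in a sample has no value.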
